A study of Homo sapiens with 2 samples.

Results

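The enzymes that build cholesterol and the proteins that switch their genes on were followed in WaGa cells with and without the histone deacetylase inhibitor domatinostat. The set holds 26 genes chosen by name, out of 32742 genes in the table, and all 26 were present. WaGa is an established line from Merkel cell carcinoma, a skin cancer with neuroendocrine features, kept in RPMI medium, and domatinostat inhibits class I deacetylases. Single cells were captured with 10x Genomics 3′ chemistry. It tags each transcript with a unique molecular identifier (UMI) at its 3′ end, so counts were not scaled by gene length. There was 1 library of WaGa cells labelled as receiving no treatment and 1 of WaGa cells labelled as treated with domatinostat. The labels gave no dose, no time and no solvent control.

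Cholesterol is made from acetyl-CoA. The mevalonate arm makes the isoprenoid building blocks, which are joined to squalene, closed to the first sterol, lanosterol, and trimmed to cholesterol. SREBP transcription factors, encoded by SREBF1 and SREBF2, are held in the endoplasmic reticulum by SCAP and the INSIG proteins while sterols are plentiful. When sterols run short, SCAP escorts SREBP to the Golgi, where proteases release the active factor, and the genes of the whole pathway are transcribed together. Dividing cells draw on the pathway for new membrane and for the isoprenoid tails of small GTPases.

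Depth was 45562976 UMIs over 4137 cells (median 11125 per cell) in the labelled-untreated library and 60160108 UMIs over 6679 cells (median 8578) in the labelled-treated library. Each group is 1 library, so the conditions were compared without replicates and without a test. Ratios are labelled treated over labelled untreated, with 95% exact Clopper-Pearson intervals that cover counting error only. All 5 genes of a list commonly raised by deacetylase inhibitors that had at least 50 UMIs were lower in the labelled-treated library. Their intervals lay wholly below 1, where 34.7% of all genes with at least 50 UMIs did. CDKN1A, among these 5 genes, had a ratio of 0.403. Directions therefore follow the labels only. Merkel cell markers were present in both libraries and summed to 1819 and 2207 CPM (UMIs per 1000000 UMIs). Of 8 with at least 50 UMIs, 6 had a ratio above 1, beside 47.4% of all genes with at least 50 UMIs. SOX2, with 83.7 and 131.6 CPM, had the highest ratio and KRT20, with 295.5 and 248.0 CPM, the lowest. The remaining marker, NEUROD1, had 19 and 7 UMIs. Keratinocyte markers summed to 403.5 and 358.9 CPM, nearly all from KRT10 and SFN, fibroblast markers to 29.3 and 17.95 CPM, mostly DCN, and each other set (T cell, B cell, myeloid, endothelial, erythroid and melanocyte) to at most 9.88 CPM, with CD3D, CD2, MS4A1, CDH5, HBB and TYR at 0. The part of these differences in the results below was not tested. The libraries shared 48 cell barcodes.

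The pathway as a whole was slightly higher in the labelled-treated library. Its genes had 127230 UMIs, or 2792 CPM, in the labelled-untreated library and 192099 UMIs, or 3193 CPM, in the labelled-treated library, which is 1.14-fold (1.14 to 1.15). All 26 genes had at least 50 UMIs over both libraries. Of these, 21 had a ratio above 1 and 5 below, where 47.4% of all 13958 genes with at least 50 UMIs, and 54.1% of 9268 genes in the same CPM range, had a ratio above 1. The interval lay wholly above 1 for 16 genes and wholly below 1 for 2, where 28.5% and 34.7% of all genes, and 36.5% and 31.7% of those in the CPM range, did. Only 1 gene, CYP51A1, was at least 1.5-fold higher (3.77% of all genes, 2.34% in the CPM range) and 0 were at least 1.5-fold lower (14.9% and 6.46%). On the log2 scale the median ratio stood at 0.17 over the 26 genes, -0.02 over all genes and 0.03 over genes in the CPM range. The counts thus show many small ratios above 1 and few large ones. In sums over cells such as these, more cells with the transcript and more transcript per cell cannot be told apart.

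**Figure D1:**
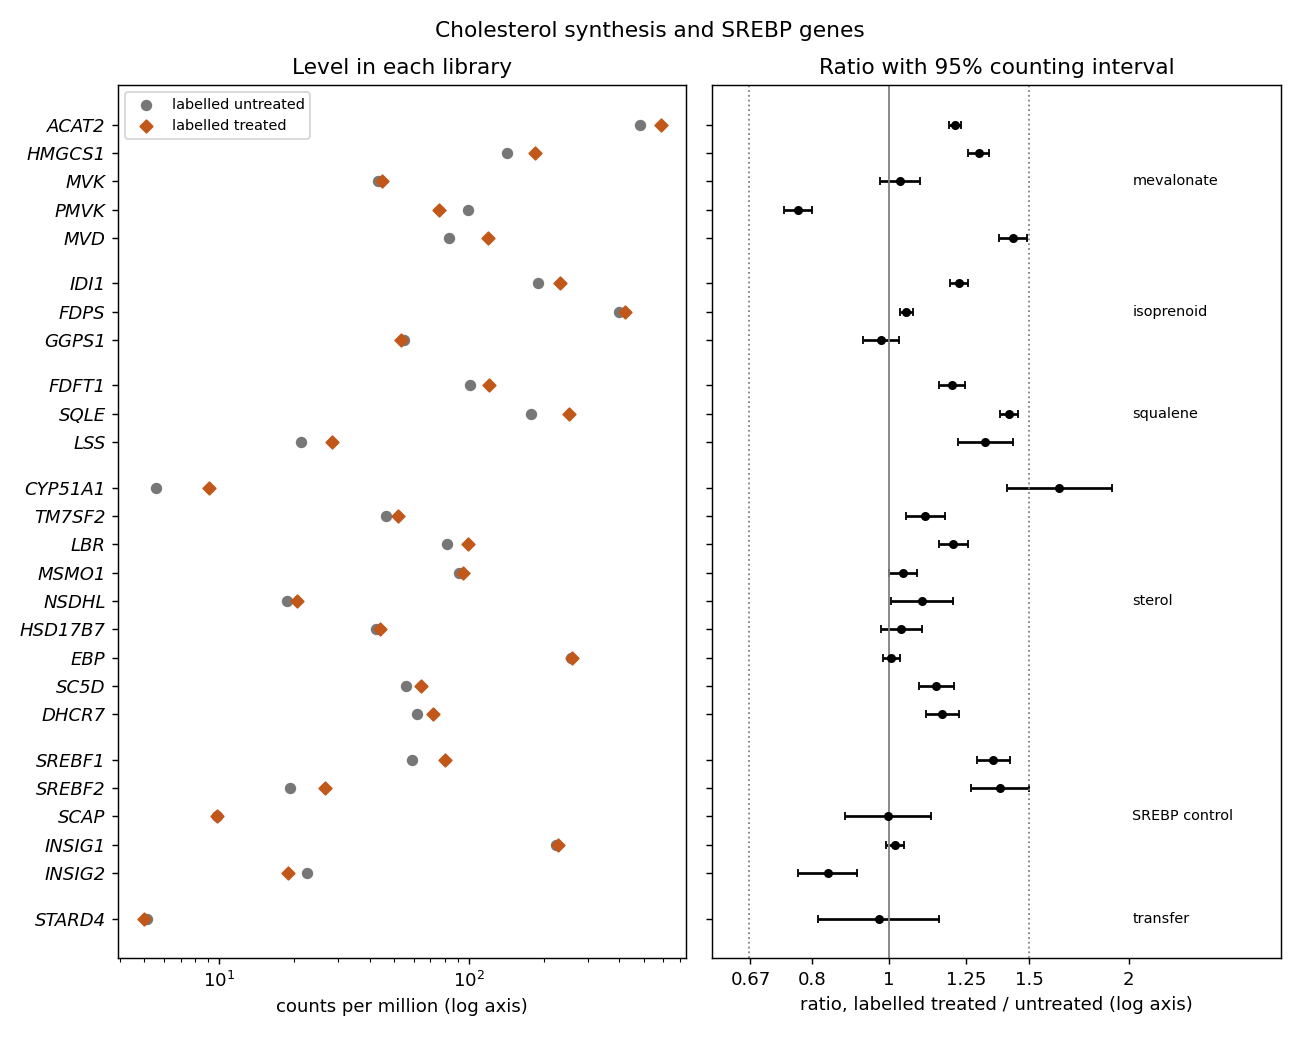
Left, CPM of each gene in the 2 libraries on a log axis, grouped by step of the pathway; right, the ratio of the labelled-treated library to the labelled-untreated library on a log axis, with the 95% counting interval and dotted lines at 1.5-fold either way. Most points lie just right of 1, PMVK and INSIG2 lie left of it with their whole interval, and only CYP51A1 lies beyond 1.5.

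The squalene step had the highest ratio of the 4 enzymatic steps. FDFT1, SQLE and LSS summed to 299.6 CPM in the labelled-untreated library and 400.0 in the labelled-treated library, a ratio of 1.34 (1.31 to 1.36). The mevalonate arm summed to 851.0 and 1009 CPM, a ratio of 1.19 (1.17 to 1.20). The isoprenoid genes had a ratio of 1.095 (1.08 to 1.11) and the 9 genes from lanosterol to cholesterol 1.08 (1.06 to 1.096). These last 2 intervals overlap. The 5 genes of SREBP control had a ratio of 1.09 (1.06 to 1.11). Each sum leaned on its most counted gene. In the labelled-treated library ACAT2 held 35188 of 60704 mevalonate UMIs, FDPS 25227 of 42390 isoprenoid UMIs and SQLE 15112 of 24063 squalene UMIs. EBP held 15471 of 42851 UMIs from lanosterol to cholesterol, and INSIG1 13659 of 21790 UMIs of SREBP control.

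Within the mevalonate arm the genes did not move as one. ACAT2, the cytosolic thiolase that joins 2 acetyl-CoA, was the most counted member, with 483 CPM in the labelled-untreated library and 585 in the labelled-treated library, a ratio of 1.21 (1.19 to 1.23). HMGCS1, the HMG-CoA synthase that is a classical SREBP target, had 142 and 184 CPM and a ratio of 1.30 (1.26 to 1.34). Both were higher in the labelled-treated library. MVK, mevalonate kinase, had 43.4 and 44.8 CPM, and its interval of 0.974 to 1.09 included 1. PMVK, the kinase of the next reaction, had 98.7 and 75.9 CPM, the lowest ratio of the set at 0.769 (0.738 to 0.802). MVD, the decarboxylase that ends the arm, had 83.4 and 119 CPM, with a ratio of 1.43 (1.38 to 1.49). PMVK and MVD, which act in neighbouring reactions, thus lay on opposite sides of 1.

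Of the isoprenoid genes, IDI1, the isomerase of isopentenyl diphosphate, had 189 and 232 CPM and a ratio of 1.22 (1.19 to 1.26). FDPS, farnesyl diphosphate synthase, had 399 and 419 CPM and a ratio of 1.05 (1.03 to 1.07). GGPS1, which makes the geranylgeranyl diphosphate used on small GTPases rather than on the way to sterols, had 54.7 and 53.5 CPM, and its interval of 0.927 to 1.03 included 1. FDPS has 8 annotated pseudogenes named after it, CYP51A1 has 3 and HSD17B7 has 2, among which counting could lose or split reads, so the levels of these 3 genes are uncertain.

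All 3 squalene genes were higher in the labelled-treated library. FDFT1, squalene synthase, had 100.7 and 121 CPM and a ratio of 1.20 (1.16 to 1.24). SQLE, squalene epoxidase, a rate-limiting enzyme of the sterol branch, had 178 and 251 CPM and a ratio of 1.41 (1.38 to 1.45). LSS, which closes the ring to lanosterol, had 21.3 and 28.2 CPM and a ratio of 1.32 (1.22 to 1.43). SQLE was detected in 74.1% and 79.6% of cells, and in 49.4% and 61.8% after each cell was thinned to 4351 UMIs. No cell type that lacks these genes was at hand to gauge free RNA in the droplets.

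The genes from lanosterol to cholesterol spread from no difference to the highest ratio of the set. CYP51A1, lanosterol demethylase, had 254 UMIs (5.58 CPM) in the labelled-untreated library and 548 (9.11 CPM) in the labelled-treated library, a ratio of 1.63 (1.41 to 1.90). It was weakly counted, detected in 5.87% and 7.80% of cells, and 2.29% and 3.84% after thinning. In cells of 7000 to 12000 UMIs, its ratio was 1.47, under the 1.5-fold threshold. LBR and TM7SF2 both encode sterol C14 reductases. Over all cells LBR, which also anchors chromatin at the inner nuclear membrane, had 81.95 and 98.7 CPM and a ratio of 1.20 (1.16 to 1.26). Its ratios by cell cycle state, given below, differed from this. TM7SF2 had 46.7 and 51.9 CPM and a ratio of 1.11 (1.05 to 1.17). DHCR7, which catalyses the last reduction of one branch to cholesterol, had a ratio of 1.17 (1.11 to 1.22), from 61.7 to 71.9 CPM. SC5D, the C5 desaturase, had a ratio of 1.15 (1.09 to 1.21), from 55.8 to 63.96 CPM. NSDHL, which acts in C4 demethylation, had 18.6 and 20.5 CPM, with an interval just above 1 (1.01 to 1.20). MSMO1 and HSD17B7, which act in the same C4 demethylation, and EBP, the sterol isomerase, had ratios of 1.04, 1.04 and 1.01, each with an interval that included 1.

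Both SREBP genes had intervals above 1, and SCAP and the INSIG genes did not. SREBF1 had 59.2 CPM in the labelled-untreated library and 79.97 in the labelled-treated library, a ratio of 1.35 (1.29 to 1.42). SREBF2, whose product mainly drives the sterol genes, had 19.3 and 26.6 CPM and a ratio of 1.38 (1.27 to 1.498). SCAP, the escort, had 9.83 and 9.81 CPM, and its interval of 0.881 to 1.13 included 1. INSIG1, an anchor that is itself an SREBP target, had 223 and 227 CPM and a ratio of 1.02 (0.991 to 1.04). INSIG2, the other anchor, had 22.5 and 18.8 CPM, a ratio of 0.838 (0.769 to 0.913). STARD4, a cytosolic sterol transfer protein, had 235 and 301 UMIs, or 5.16 and 5.003 CPM, with an interval of 0.815 to 1.16.

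The promoters of the members were read for 3 short motifs. Any relation of the motifs to the ratios was not tested. Promoters were matched by symbol for 23 members in the RefSeq table of build GRCh38.p14 (ACAT2, FDFT1 and SQLE had no entry), and the 250 bases before the start were searched on both strands. CCAAT, the core of the binding site of NF-Y, a partner of SREBP, was in 15 of 23 (65.2%), beside 33.0% of all 27305 promoters and 35.4% of the 9585 promoters of genes with at least 50 UMIs. GGGCGG, the GC box, was in 20 of 23 (87.0%), beside 42.3% and 67.9%. A sterol regulatory element written as TCACNCCAC was in 1 of 23, that of SREBF2, beside 0.875% and 0.939%. These letters may overlap one another, and a match is not a binding site. Nor does a missing match show that a site is absent, since 1 spelling was searched in 250 bases. The promoters of the highest and lowest ratio, CYP51A1 and PMVK, and of the SREBP targets HMGCS1 and INSIG1, whose ratios differ, are given 5′ to 3′ and end at the base before the start, with motif letters in capitals:
CYP51A1, chr7:92134478-92134727, minus strand: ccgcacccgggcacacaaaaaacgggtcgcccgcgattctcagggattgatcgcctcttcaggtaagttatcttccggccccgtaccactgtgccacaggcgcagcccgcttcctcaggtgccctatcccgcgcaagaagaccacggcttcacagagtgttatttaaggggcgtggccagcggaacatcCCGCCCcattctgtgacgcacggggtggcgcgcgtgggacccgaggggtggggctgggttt
PMVK, chr1:154936720-154936969, minus strand: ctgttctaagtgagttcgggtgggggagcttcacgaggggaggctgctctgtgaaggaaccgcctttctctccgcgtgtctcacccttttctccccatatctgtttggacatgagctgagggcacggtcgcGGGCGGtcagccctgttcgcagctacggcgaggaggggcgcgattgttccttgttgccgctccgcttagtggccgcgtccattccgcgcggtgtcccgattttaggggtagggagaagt
HMGCS1, chr5:43313413-43313662, minus strand: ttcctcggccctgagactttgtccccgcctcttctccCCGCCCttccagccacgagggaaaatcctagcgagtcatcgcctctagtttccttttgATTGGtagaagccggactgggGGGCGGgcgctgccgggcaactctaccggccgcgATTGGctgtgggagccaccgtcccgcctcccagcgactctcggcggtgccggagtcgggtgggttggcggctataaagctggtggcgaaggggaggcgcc
INSIG1, chr7:155297628-155297877, plus strand: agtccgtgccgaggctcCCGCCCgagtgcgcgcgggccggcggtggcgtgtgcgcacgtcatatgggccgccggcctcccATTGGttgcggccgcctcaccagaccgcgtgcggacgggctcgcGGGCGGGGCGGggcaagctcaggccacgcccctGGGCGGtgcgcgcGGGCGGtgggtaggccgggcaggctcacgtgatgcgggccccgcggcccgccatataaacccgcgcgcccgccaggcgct
In HMGCS1 and INSIG1, CCAAT lies on the strand opposite to the one printed, which reads ATTGG there. It stands at 96 to 100 and at 151 to 155 bases before the start of HMGCS1. For INSIG1 it stands at 166 to 170 bases before the start. CYP51A1 and PMVK held no CCAAT and 1 GC box each in this window.

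Nearly every cell carried transcripts of the set, and the distributions of the libraries overlapped widely. For values per cell, cells were thinned to 4351 UMIs, which left out 245 shallower cells labelled untreated and 667 labelled treated. Of 3892 cells labelled untreated, the median held 11 UMIs of the 26 genes, with 8 to 15 between the quartiles. Of 6012 cells labelled treated, the median held 13, with 10 to 17. Only 3 and 0 cells held none, and 63.8% of cells labelled treated lay above 11 UMIs against 48.7% of cells labelled untreated. The variance of the count was 2.45 times its mean in the labelled-untreated library and 2.09 times in the labelled-treated library, where independent counting at 1 common level would give about 1 (a Poisson count).

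The level also differed between cell cycle states. Phases were called from lists of S and G2/M genes that hold no member (LBR, a usual G2/M gene, was taken out). No list of G1 genes was used, so cells called G1 are those that scored low for both lists. Of cells labelled untreated 9.79% were called G1, 58.3% S and 31.9% G2/M, against 5.81%, 50.2% and 43.96% of cells labelled treated. The G1 share depended on the counts used, and was 5.51% and 2.55% in unthinned cells and 4.38% and 1.17% in cells thinned to 8578 UMIs. In the labelled-untreated library, the 26 genes summed to 16.6 UMIs per 10000 in cells called G1 (15.97 to 17.2), 29.3 in S (28.97 to 29.6) and 26.8 in G2/M (26.4 to 27.2). In the labelled-treated library the values were 24.7 (23.95 to 25.5), 33.8 (33.5 to 34.1) and 30.1 (29.8 to 30.5). G1 was lowest and S highest in both. The ratio between the libraries was 1.49 (1.42 to 1.57) in cells called G1, 1.15 (1.14 to 1.17) in S and 1.12 (1.103 to 1.15) in G2/M. Cells called G1 numbered 381 and 349, and were shallower before thinning, with medians of 8037 and 6861 UMIs against 10998.5 and 8476.5 in S. Ribosomal protein transcripts took a median of 23.6% and 24.2% of their UMIs against 20.6% and 21.9% in S. The part of ribosomal transcripts in the difference was not tested.

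**Figure D2:**
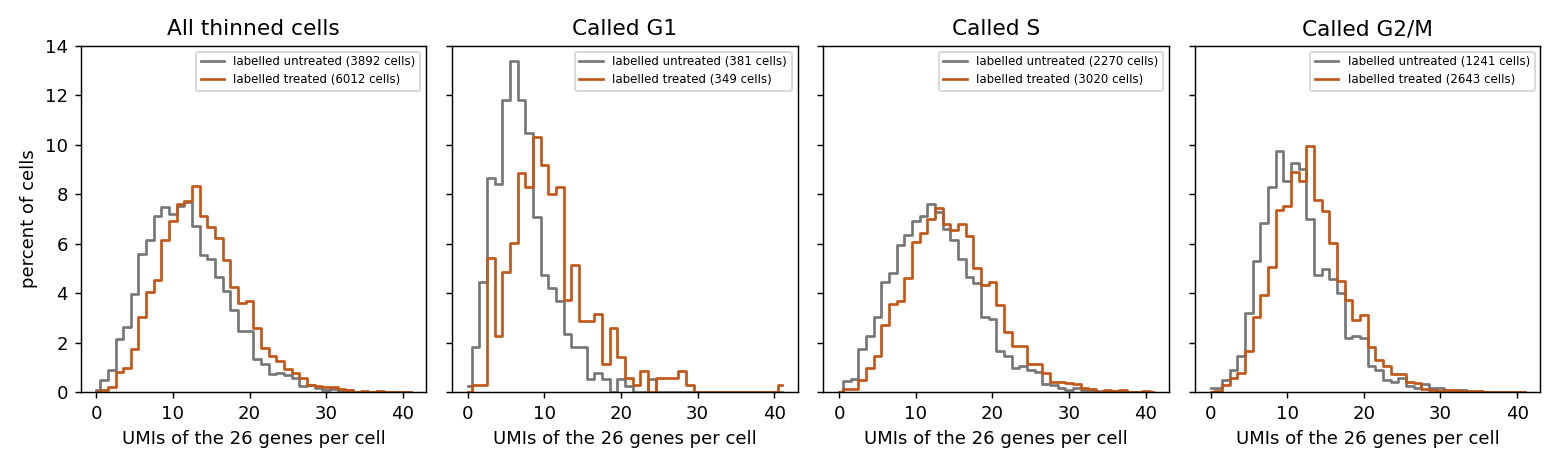
Percent of thinned cells (4351 UMIs each) by the number of UMIs of the 26 genes they hold, in all cells and in cells called G1, S and G2/M, for the libraries labelled untreated (grey) and treated (orange). The curves overlap in every panel, and in G1 the medians are 7 and 10 UMIs.

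The low level in G1 was shared by many members of the labelled-untreated library. There 1 of 26 genes had a higher level in G1 than in S (48.7% of all genes). At the same time 0 were at least 1.5-fold higher (9.27%). Conversely 14 of 26 were at least 1.5-fold lower in cells called G1 than in S, where 15.2% of all 10070 genes with at least 50 UMIs were, and 14 had intervals wholly below 1 (17.2%). On the log2 scale the median ratio of G1 to S was -0.71, beside -0.01 over all genes. ACAT2 was lowest, at 0.334 of its S level (0.297 to 0.374), FDPS had 0.481 (0.430 to 0.535) and INSIG1 0.552 (0.477 to 0.637). The kinase PMVK, GGPS1, SC5D and INSIG2 had ratios from 0.983 to 1.001, with intervals that included 1. In the labelled-treated library 3 of 26 were at least 1.5-fold lower (13.7% of all genes), with a median log2 ratio of -0.31 beside -0.06, and ACAT2 had 0.569 (0.522 to 0.619). MVK at 0.569 and IDI1 at 0.638 were the other two. Of 26, 4 had a higher level in G1 than in S (44.1% of all genes) and 0 were at least 1.5-fold higher (5.22%). GGPS1, at 1.26 (1.003 to 1.57), and SREBF1, at 1.246 (1.04 to 1.48), had intervals wholly above 1 (8.31%), and 13 members had intervals wholly below 1 (13.5%).

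CYP51A1, SCAP and STARD4 had under 50 UMIs in G1 and were not compared between the libraries there. Of the other 23 members, 19 had a ratio above 1 (52.0% of all genes), 15 had intervals wholly above 1 (13.2%), and 12 were at least 1.5-fold higher in the labelled-treated library, where 6.58% of all genes were, and 1, INSIG2, was at least 1.5-fold lower (8.56%). On the log2 scale their median ratio stood at 0.60, beside 0.02 over all genes. MVD had 45.9 and 108.7 CPM in G1, a ratio of 2.37 (1.80 to 3.15), and ACAT2 had 190.0 and 377 CPM, a ratio of 1.99 (1.73 to 2.29). SREBF1 had a ratio of 1.82 (1.39 to 2.40) and SREBF2 of 1.88 (1.12 to 3.21). INSIG1, near 1 over all cells, had 127 and 186 CPM and a ratio of 1.47 (1.22 to 1.76), and FDPS had 1.56 (1.36 to 1.79). INSIG2 had only 39 and 23 UMIs, a ratio of 0.644 (0.367 to 1.11), and PMVK had 0.714 (0.549 to 0.924). Among cells called S, 21 of 26 members had a ratio above 1 (52.9% of all genes), 15 had intervals wholly above 1 (21.9%), 2, MVD and CYP51A1, exceeded 1.5-fold (4.67%), and 0 lay that far below 1 (10.5%). In G2/M 16 of 26 had a ratio above 1 (49.5%), 11 had intervals wholly above 1 (18.9%), 1, CYP51A1, exceeded 1.5-fold (6.41%), and 0 lay that far below 1 (9.36%).

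Some members had unlike ratios in S and in G2/M, a difference that was not tested. MSMO1 had a ratio of 1.14 (1.04 to 1.23) in S and 0.884 (0.791 to 0.988) in G2/M. FDFT1 had 1.39 (1.28 to 1.51) and 1.03 (0.933 to 1.13), and DHCR7 1.29 (1.17 to 1.43) and 0.984 (0.865 to 1.12). Other members went the other way. Among them ACAT2, the most counted member, had 1.165 (1.127 to 1.205) in S and 1.323 (1.258 to 1.393) in G2/M. SC5D had 1.07 (0.953 to 1.19) in S and 1.27 (1.11 to 1.46) in G2/M, and its intervals overlap. MVD, at 1.54 and 1.495, HMGCS1, at 1.39 and 1.26, and SQLE, at 1.36 and 1.30, were above 1 in both. The step from lanosterol to cholesterol summed to a ratio of 1.097 (1.06 to 1.13) in S and 1.01 (0.976 to 1.05) in G2/M. LBR, of that step, had 1.14 (1.03 to 1.27) in S and 0.957 (0.876 to 1.05) in G2/M. In G1 it had 1.36 (0.946 to 1.96), and with the phases at equal weight 1.065, against 1.20 over all cells. The part of the larger G2/M share of the labelled-treated library in the LBR ratio over all cells was not tested.

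**Figure D3:**
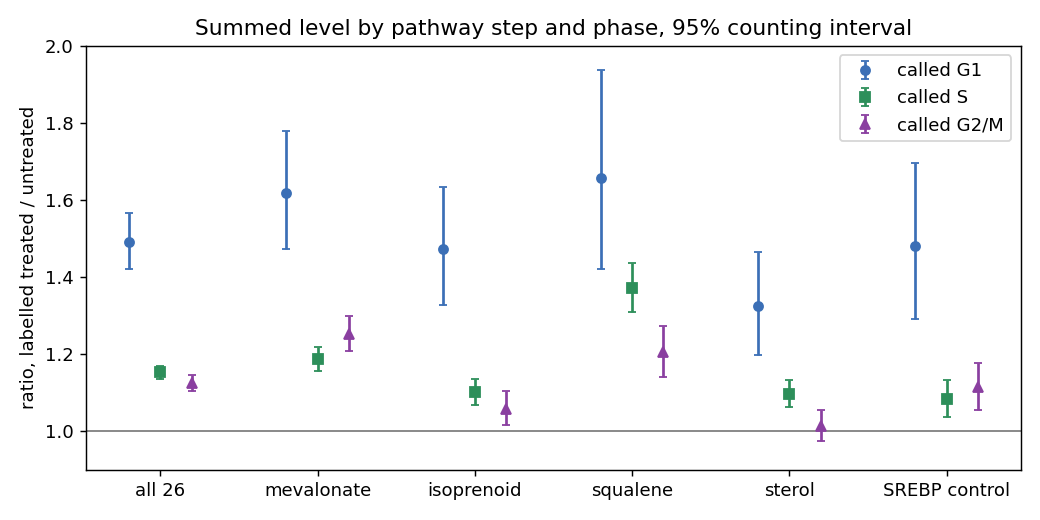
Ratio of the summed level of each step between the libraries (labelled treated over labelled untreated) in thinned cells called G1, S and G2/M, with 95% counting intervals; STARD4 alone is left out. Each step is highest in G1, from 1.32 for the sterol genes to 1.66 for the squalene genes.

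Within each library, members differed in their G2/M to S ratio, which was above 1 for 13 of 26 in the labelled-untreated library (51.2% of all genes) and 11 in the labelled-treated library (48.4%). Intervals lay wholly above 1 for 5 (25.3%) and 7 (22.4%), and wholly below 1 for 6 (24.6%) and 11 (25.7%). LBR stood apart, with 60.1 CPM in S and 137 in G2/M in the labelled-untreated library, a ratio of 2.29 (2.05 to 2.55), and 68.8 and 132 in the labelled-treated library, a ratio of 1.91 (1.76 to 2.08). It was the only member at least 1.5-fold higher in G2/M than in S in either library, where 12.6% and 9.15% of all genes were. ACAT2 had G2/M to S ratios of 0.661 (0.628 to 0.696) and 0.751 (0.727 to 0.777), and FDPS of 0.740 and 0.773. ACAT2 in the labelled-untreated library and NSDHL in the labelled-treated library, at 0.660 (0.546 to 0.797), were the only ones at least 1.5-fold lower (12.9% and 8.56%). FDFT1 had a G2/M to S ratio of 1.24 (1.11 to 1.37) in the labelled-untreated library and 0.915 (0.851 to 0.983) in the labelled-treated library. TM7SF2, the other C14 reductase, had 0.978 (0.837 to 1.14) and 0.793 (0.708 to 0.887), where LBR was above 1 in both.

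**Figure D4:**
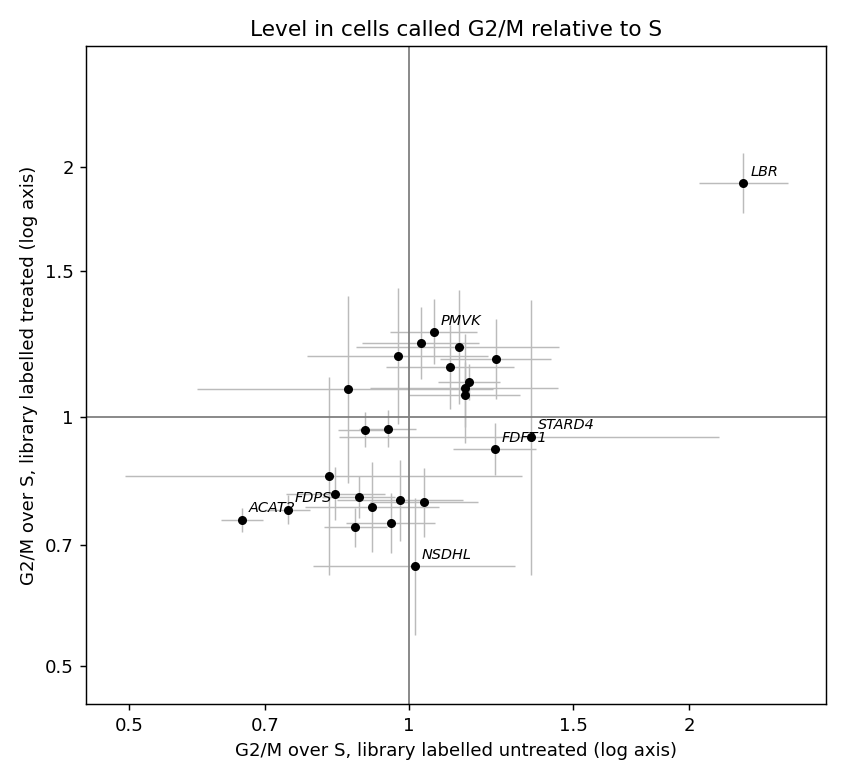
Level in cells called G2/M over cells called S for each of the 26 genes, in the labelled-untreated library (x, log axis) and labelled treated (y, log axis), with 95% counting intervals. LBR lies near 2 on both axes and ACAT2 and FDPS lie below 1 on both.

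Members tended to occur in the same cells. In thinned cells with a UMI of a member, the other members summed to more UMIs than in cells without one, for 24 of 26 members in the labelled-untreated library and 20 of 26 in the labelled-treated library, beside 50.9% and 51.9% of other genes in the CPM range. The median ratios were 1.12 and 1.07, beside 1.001 over those genes in both libraries. They summed to at least 1.1-fold more for 15 members (beside 4.23% of those genes) and for 11 members (beside 0.888%). For HMGCS1 the means were 12.5 and 10.4 UMIs in the labelled-untreated library, a ratio of 1.21, and 13.8 and 12.1 in the labelled-treated library, a ratio of 1.15. INSIG1 had ratios of 1.20 and 1.12, and MSMO1 of 1.19 and 1.14. PMVK had 1.01 and 0.995, GGPS1 0.999 and 0.963, SREBF1 1.01 and 1.00, and SREBF2 0.989 and 0.982. The genes of the factors thus lay near 1, as PMVK and GGPS1 did, and below HMGCS1 and INSIG1. CYP51A1, at 1.04 and 1.07, and STARD4, at 1.06 and 1.03, also lay below HMGCS1 and INSIG1. Cells of all phases were pooled within each library, and cells called G1 were low in both libraries. The part of phase in these ratios was not tested, so this is a description of co-occurrence only.

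The summed level also varied with the depth of the cell. In the labelled-untreated library it was 22.4 per 10000 in cells under 5000 UMIs, 23.2 in cells of 7000 to 9000 and 30.2 in cells of 12000 to 16000. In the labelled-treated library it was 28.9, 31.3 and 33.1 in the same ranges. The ratio was above 1 in all 6 ranges, from 1.098 (1.08 to 1.11) at 12000 to 16000 UMIs to 1.35 (1.32 to 1.38) at 7000 to 9000. In cells of 7000 to 12000 UMIs G1 lay below S too, with 16.4 per 10000 against 28.4 in the labelled-untreated library, and 26.03 against 34.9 in the labelled-treated library.

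**Figure D5:**
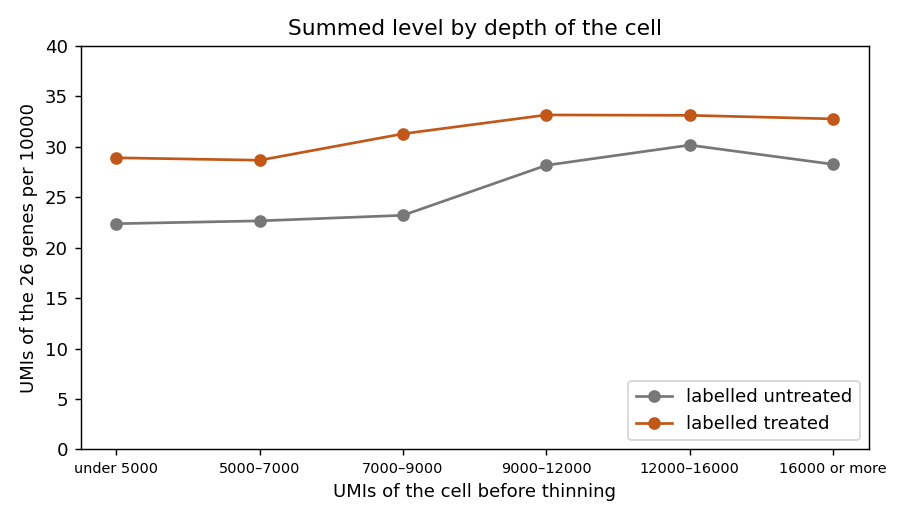
UMIs of the 26 genes per 10000 UMIs, by the depth of the cell before thinning, for both libraries. The labelled-treated library lies above the other in each of the 6 ranges, and both rise between the shallowest cells and those of 12000 to 16000 UMIs.

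Lists of genes beside the pathway held 60 genes with at least 50 UMIs, of which 35 had a ratio above 1. The share was 47.4% of all genes and 54.1% of genes in the members' CPM range. Of 9 other genes of SREBP activation and sterol-regulated degradation, 6 had a ratio above 1, from MBTPS1, the protease that makes the first cut in SREBP, at 1.32 (1.21 to 1.45) to PAQR3 at 0.819 (0.717 to 0.936). Of the fatty acid genes 8 of 15 were above 1, near the share of all genes, with a median log2 ratio of 0.05. FASN, fatty acid synthase, had 14.2 and 24.6 CPM and a ratio of 1.74 (1.58 to 1.91), the highest of this list. FADS1, a desaturase, had 41.6 and 24.9 CPM and a ratio of 0.598 (0.559 to 0.641), the lowest. Of 13 genes that use isoprenoids, 9 were above 1. PGGT1B and FNTA, both prenyltransferase subunits, had the highest and lowest ratio, 1.15 (0.957 to 1.39) and 0.952 (0.891 to 1.02). Sterol efflux and liver X receptor genes had 5 of 10 above 1, from ABCA1, the efflux pump, at 1.45 (1.32 to 1.60) to SMPDL3A at 0.718. Uptake and storage genes had 7 of 13 above 1, from the lipoprotein receptor gene LRP8 at 1.47 (1.36 to 1.58) to SOAT2, a cholesterol esterifying enzyme, at 0.476 (0.403 to 0.560). Over these 5 lists 1 of 60 genes, FASN, exceeded 1.5-fold (3.77% of all genes, 2.34% in the CPM range). FADS1 and SOAT2, 2 genes, lay that far below 1 (14.9% and 6.46%).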

How the data were processed

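Cell Ranger, Seurat and hg19 appear, without versions, per the submitters' processing notes. Annotation and cell filters are not given in the sources used here. Both libraries share 1 table, in which the authors deposited the natural log of 1 plus counts per 10000. In each cell the smallest value above 0 was taken as 1 UMI; 100% of values were whole multiples of it (tolerance 1e-06), so counts were recovered for all 10816 cells. The treatment word ending each cell name gave its library.

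UMIs were summed per gene and divided by the library total. Called means at least 1.5-fold, over genes with at least 50 UMIs; with 1 library per group there was no test. Each cell's UMIs were drawn down at random to 4351, set by the shallower library's 10th percentile, and phases called with scanpy 1.11.5, both libraries together. Doublets were not called. Interval and thinning code was tested on simulated data. Python 3.11.15, numpy 2.4.6 and scipy 1.17.1 were used. All 26 members are named, and of 5 neighbouring lists the highest and lowest ratio; other names were chosen after their values were seen. Members and lists were chosen with earlier results of these data known. Some pathway genes are not reported here.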

Additional observations from a re-analysis of the deposited data

How the results depend on the processing

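No paired analysis was possible because each group had 1 library, and none could be left out. Of the 26 ratios, 23 kept their side of 1 under the 7 alternatives of scaling, weighting and cells, 21 above and 2 below; SCAP and STARD4, both near 1, did not, and GGPS1 crossed 1 only under the median ratio scaling, which multiplies every gene's ratio by 1 factor. The summed ratio of 1.14 became 1.21 scaled by the median ratio of genes, 1.16 with equal weight for each cell, 1.21 in cells of 7000 to 12000 UMIs, 1.16 in thinned cells, 1.22 with the 3 phases at equal weight and 1.13 without ACAT2, the most counted member. Genes at least 1.5-fold higher, 1 in the report, numbered 2 under the median ratio scaling, 2 in cells of 7000 to 12000 UMIs (MVD and SQLE, without CYP51A1), 2 in thinned cells, 3 with phases at equal weight and 0 with a pseudocount of 0.1 per 10000, which shrinks weak genes by construction. The ratio in G1, 1.49 in cells thinned to 4351 UMIs, became 1.54 in unthinned cells, with 228 and 170 cells in that phase. It became 1.39 with each library scored alone and 1.70 thinned to 8578 UMIs, with 127 and 39 cells in that phase. Between 7000 and 12000 UMIs it was 1.58. In S the ratio became 1.18 at the thinning to 8578 UMIs and 1.23 in the window of 7000 to 12000 UMIs. In G2/M it became 1.18 in that window. The window within phases was chosen after seeing the data. The cause of the other shifts was not tested. Depth limits CYP51A1, STARD4 and SCAP in G1, where each had at most 12 UMIs per library.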
